A study of Homo sapiens with 8 samples.

Results

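Gene expression in JVM13 cells making the T286A form of cyclin D1 was compared with that in JVM13 cells carrying the matching empty vector, over all genes measured. Members were chosen by sample title: 3 arrays of T286A cells and 2 arrays of empty vector cells, 5 of the 8 arrays of the study. The other 3 arrays came from JVM13 cells with wild-type cyclin D1. JVM13 is a permanent B-cell line that originated in a human prolymphocytic leukaemia. Each construct sat in a vector switched on by doxycycline, and cells of every group, controls included, received doxycycline at 0.1 µg/mL. The groups therefore share the cell line, the vector and the drug, and differ in the insert. The sources used here do not give the time of induction, the number of independently made populations behind each construct, or whether replicates were grown as separate cultures. P-values accordingly reflect only how far these samples differ among themselves, and that spread may be technical.

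Cyclin D1, the product of CCND1, binds and activates the kinases CDK4 and CDK6 in the G1 phase of the cell cycle. These kinases phosphorylate the retinoblastoma protein and its relatives, which frees E2F transcription factors to switch on genes for DNA replication, and later genes for mitosis follow. Cyclin D1 is normally marked for export from the nucleus and destruction by phosphorylation of a threonine near its end; T286A replaces this threonine with alanine and stabilises the protein. Mature B cells make little cyclin D1 of their own, and its forced expression is the hallmark of mantle cell lymphoma.

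All values are log2 expression values from robust multi-array averaging (RMA), a method that equalises the distribution of intensities between arrays, so each difference is relative to the other genes of the array. One probe set, a group of probes for a transcript, stood for each of 18231 genes. A gene was called higher or lower at a Benjamini-Hochberg adjusted p under 0.05 in limma, fitted to all 8 arrays. Differences are T286A minus empty vector in log2 units, ± SE, unless another contrast is named. The T286A arrays correlated with each other at 0.9958 to 0.9967 and the empty vector arrays at 0.9969. The highest correlation with an array of another group was 0.996, 0.9954 and 0.996 for T286A and 0.996 and 0.9958 for empty vector. The T286A arrays were thus not set apart from the other groups on this measure. Array medians in the study lay between 5.47 and 5.62, and wild-type replicate 2 stood apart from its group (0.9942 to 0.9945). Defining genes of the labelled cell type were bright: the B-cell genes MS4A1 (CD20) and CD79A, a subunit of the B-cell receptor, lay at 13.2 to 13.4 and 11.6 to 11.8 in the T286A and empty vector arrays. Markers of other cell types were dim: 14 of 19 T and NK cell markers, 11 of 14 myeloid, 13 of 14 stromal, epithelial and endothelial, and 8 of 9 erythroid markers lay below the median of all genes (5.94), and 0 were called in either direction. Of 29 measured B-cell identity genes, 7 also lay below this median. VCAN was a bright exception among the myeloid markers. Its brightest probe set lay at 8.41, 8.56 and 8.45 with T286A and 8.90 and 9.14 with empty vector. The T-cell genes CD3D and CD3E lay between 3.99 and 4.80 in the 5 T286A and empty vector arrays, and the monocyte gene CD14 between 4.34 and 4.88.

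The transgene was read in every T286A array. CCND1 lay at 11.25, 10.86 and 10.95 with T286A and 5.25 and 4.98 with empty vector. The T286A arrays stood far above both controls, in which the gene was below the median of all genes. The difference was 5.90 ± 0.13 (adjusted p = 5.54e-07); no detection calls were used here, so the control level was not shown to be above background and no fold is given. The other 3 CCND1 probe sets lay between 3.93 and 4.66 in the T286A arrays and differed by -0.069, -0.092 and 0.036. Expression was thus read by 1 of 4 probe sets, and the array does not show which form of the protein was made. The endogenous relatives did not pass the test. CCND2, the D cyclin with the brightest probe set here, lay at 12.72, 12.70 and 12.71 in T286A cells and 12.97 and 12.94 in controls, a difference of -0.24 (adjusted p = 0.142). CCND3 was at 0.21 (adjusted p = 0.295), and the kinase genes CDK4 and CDK6 were at -0.055 and -0.18 (adjusted p = 0.857 and 0.278). Of 15 measured genes that act on the degradation or nuclear export of cyclin D1, 0 were called; the exportin gene XPO1 was at 0.18 (adjusted p = 0.309) and CRYAB, a crystallin that serves in cyclin D1 ubiquitination, at -0.18 (adjusted p = 0.351).

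Across all genes the response was shallow. Of 18231 genes, 97 were called (0.532%), 62 higher (0.34%) and 35 lower (0.192%). CCND1 was the single gene higher by 1 or more, and 4 genes were lower by 1 or more. Called rises had a median of 0.52 and the smallest was 0.38; called falls had a median of -0.58 and the smallest was -0.48. For comparison, the central 95% of all genes lay between -0.32 and 0.33, the median over all genes was -0.003, and the 2 empty vector arrays differed from each other with an SD of 0.18 over genes. At an unadjusted p under 0.05, 1084 genes were higher (5.95%) and 1121 lower (6.15%), so the excess of rises among the calls was not seen among weaker differences. The T286A and empty vector arrays did not overlap in any of the 97 called genes, a property shared by 2779 (15.2%) of all genes in the higher direction and 3042 (16.7%) in the lower. Called rises were mostly bright genes: ordered by mean expression, the brightest 4558 genes held 47 of 62 and the dimmest 4558 held 0. Called falls were less bright, with 14 among the brightest 4558 and 16 among the next 4557. When each array was centred on the median level of its 24 reference genes instead, the median of all genes moved to -0.06 and that of the reference genes to -0.049; 18 genes were called higher and 30 lower.

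**Figure D1:**
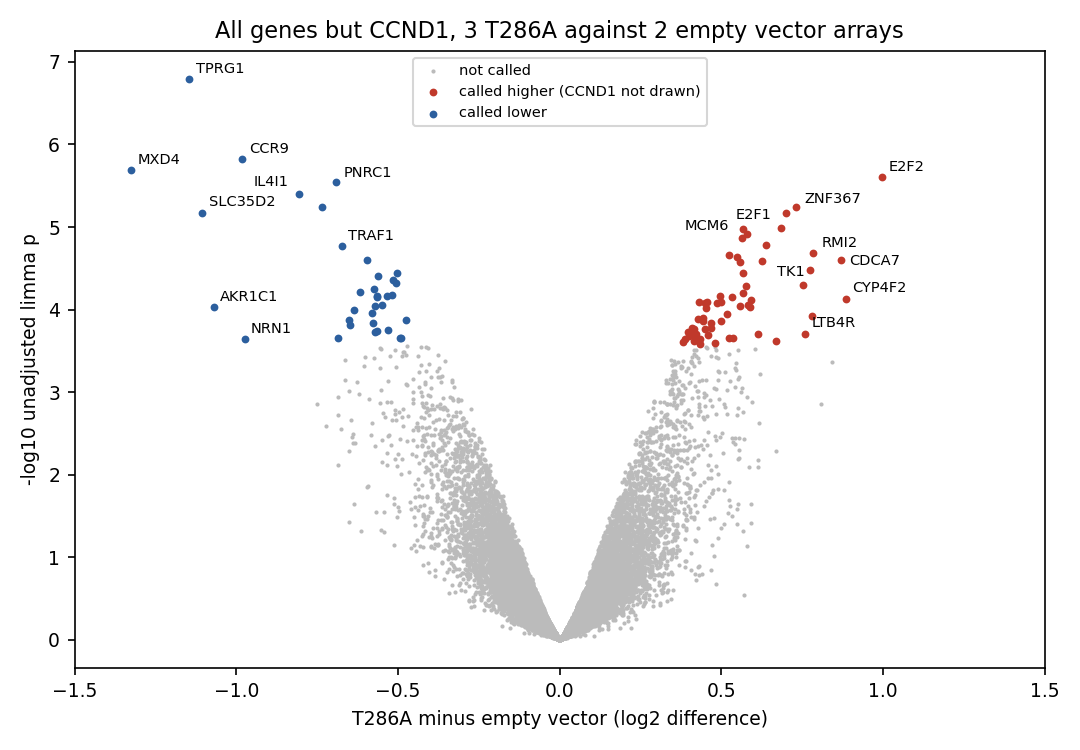
Each point is a gene, with T286A minus empty vector (log2) on the horizontal axis and -log10 of the unadjusted limma p on the vertical axis; red and blue points are the genes called higher and lower, and CCND1 at 5.90 is left out. Red points crowd between 0.38 and 1.00, and blue points reach further out, to -1.32 for MXD4.

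After CCND1, the largest called rise was that of an E2F transcription factor gene. Of 10 measured E2F and partner genes, 3 were called higher and 0 lower, with a list median of 0.26 against -0.003 over all genes. E2F2, an activator of S-phase genes, lay at 9.22, 9.45 and 9.34 in the T286A arrays and 8.40 and 8.28 in the empty vector arrays. Its lowest T286A array was above the higher control by more than the control arrays differed, and the rise was 1.00 ± 0.088 (adjusted p = 0.00858). E2F1, the founding activator of the family, lay at 8.33, 8.44 and 8.30 with T286A and 7.65 and 7.66 with empty vector, with controls that almost coincided, and rose by 0.70 ± 0.070 (adjusted p = 0.0112). E2F8 is an atypical member that represses E2F targets late in S phase. It lay at 9.96, 10.01 and 9.88 in T286A cells and 9.14 and 9.21 in controls and rose by 0.78 (adjusted p = 0.0364). The other members did not pass: E2F7, the second atypical repressor, was at 0.57 (adjusted p = 0.0987), the activator E2F3 at 0.37 (adjusted p = 0.191), and the partner TFDP2 at -0.27 (adjusted p = 0.139). E2F4, E2F5, E2F6 and TFDP1 lay between -0.21 and 0.14. The second E2F2 probe set, a dim one, differed by 0.43 and was not called (adjusted p = 0.415 over probe sets).

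None of 9 measured pocket protein and CDK inhibitor genes was called, and their median was 0.20. RB1, the retinoblastoma gene, was at 0.10 and its relatives RBL1 and RBL2 at 0.21 and 0.14. Other probe sets of RBL1, similar in brightness, differed by 0.60 and 0.75 (limma adjusted p = 0.116 and 0.117 over probe sets). Those of RB1 differed by 0.28 and 0.30. The inhibitor CDKN2D lay at 7.54, 7.83 and 8.04 in the T286A arrays and 7.21 and 7.29 in the empty vector arrays. All 3 T286A arrays were above both controls, but they spread widely among themselves, and the difference of 0.56 ± 0.15 did not pass (adjusted p = 0.17). CDKN1A (p21), also a p53 target, was at 0.22 (adjusted p = 0.191), CDKN1B (p27) at 0.24 and CDKN2A at 0.20. Dimmer CDKN2A probe sets were at 0.26 and 0.50.

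Genes that drive and license S phase gave further calls. Of 12 S-phase cyclins, kinases and phosphatases, 5 were called higher and 0 lower, with a median of 0.41. The 11 members with a positive difference all had T286A arrays above both controls, as did 15.2% of all genes. CDT1, which loads the replicative helicase onto origins, lay at 10.09, 9.98 and 10.01 with T286A and 9.33 and 9.35 with empty vector and rose by 0.68 ± 0.072 (adjusted p = 0.0148). DTL, the receptor that directs CDT1 to destruction during S phase, rose by 0.64 ± 0.072, from 10.15 and 10.20 in controls to 10.91, 10.77 and 10.76 with T286A. CDC6, the loading partner of CDT1, rose by 0.55 (adjusted p = 0.0203) and CDC25A, a phosphatase that activates CDK2, by 0.46 (adjusted p = 0.0453). The list also held 1 negative member, CCNE1 (cyclin E1), chosen here after its values were seen. CCNE1 lay at 8.10, 8.24 and 8.17 in T286A cells and 8.47 and 8.29 in controls, a difference of -0.21 that did not pass (adjusted p = 0.419).

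The replication machinery showed small positive differences throughout. All 47 measured genes of origin licensing and the replication fork had positive differences, from 0.023 to 0.63 with a median of 0.33. T286A arrays lay above both controls in 44, against 15.2% of all genes. At an unadjusted limma p under 0.05, 37 were higher, against 5.95% of all genes, and 9 were called. The level of the list's median gene was 10.00, 9.95 and 10.06 in the T286A arrays and 9.69 and 9.62 in the controls. MCM10, which helps start the helicase, lay at 9.25, 9.20 and 9.15 in the T286A arrays and 8.66 and 8.49 in the empty vector arrays and rose by 0.63 (adjusted p = 0.0203); its other 2 probe sets differed by 0.55 and 0.69. MCM6, a subunit of the helicase itself, lay at 11.12, 11.06 and 11.09 with T286A and 10.51 and 10.52 with empty vector and rose by 0.58 ± 0.063 (adjusted p = 0.0161), and its 3 probe sets were all called. MCM3, another subunit, rose by 0.50, and RFC3, part of the clamp loader, by 0.48. The remaining 5 called members rose by 0.41 to 0.45. Of 17 nucleotide synthesis genes, 1 was called. TK1, the salvage kinase for thymidine, lay at 11.16, 10.94 and 11.03 in T286A cells and 10.33 and 10.21 in controls. Its rise of 0.78 ± 0.096 (limma adjusted p = 0.0239) was matched by its second probe set (0.74). The list median was 0.11, and 15 members were positive. T286A arrays lay above both controls in 11, against 15.2% of all genes. At an unadjusted limma p under 0.05, 6 were higher and 0 lower, against 5.95% and 6.15% of all genes. DCK, the deoxycytidine kinase, was next at 0.40 (adjusted p = 0.0603).

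**Figure D2:**
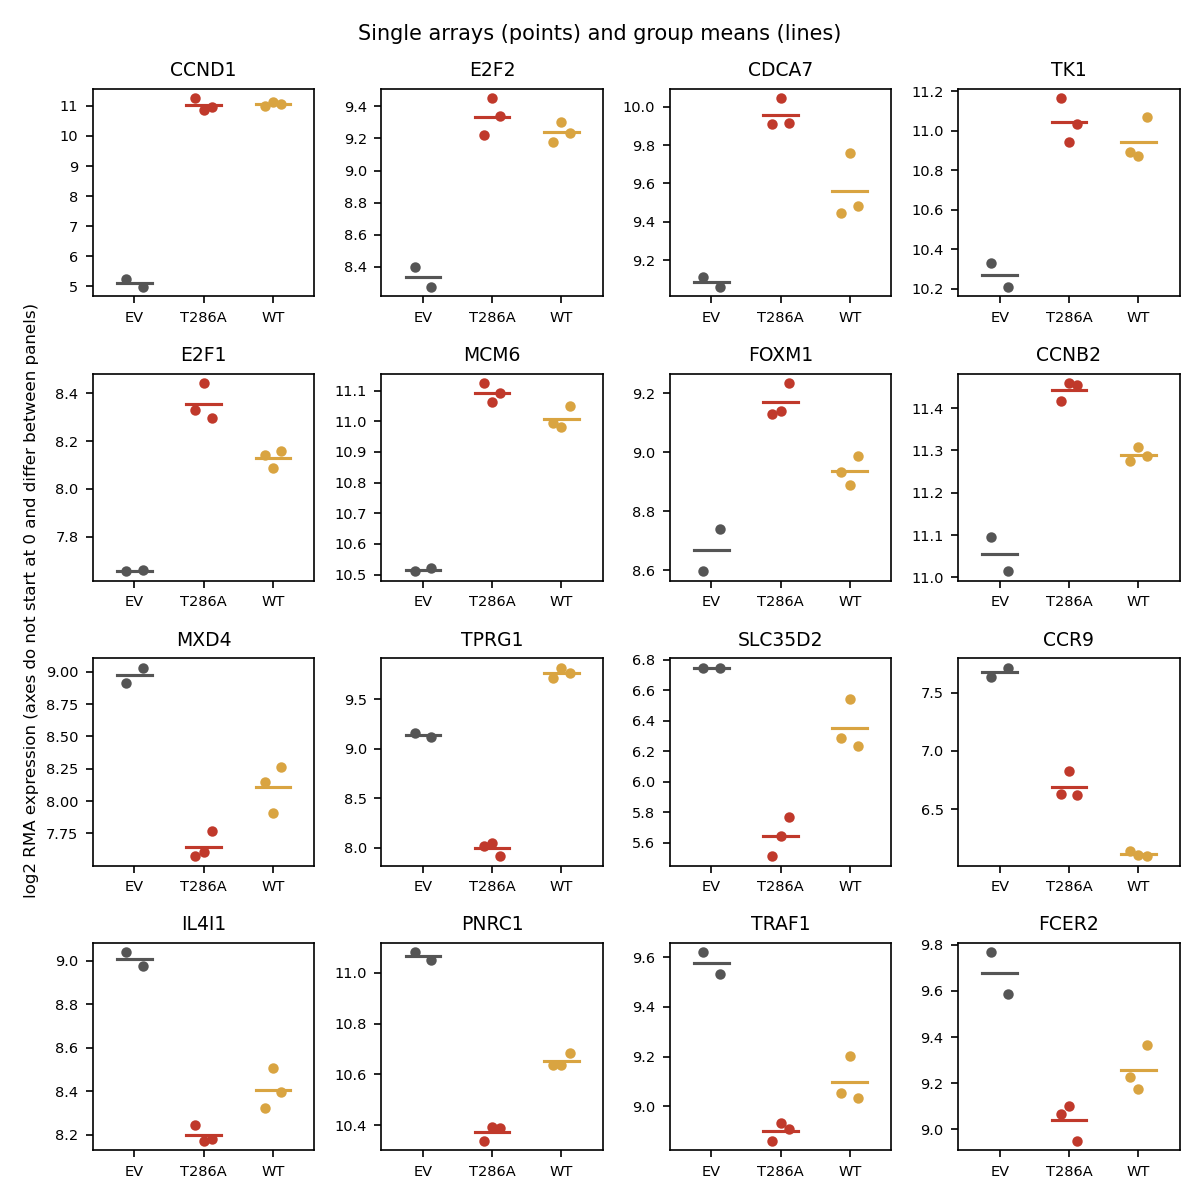
Each panel plots 1 gene, with the log2 RMA value of every array as a point and the group mean as a line for empty vector (EV, 2 arrays), T286A (3 arrays) and wild type (WT, 3 arrays); axes do not start at 0 and differ between panels. In the panels of E2F2, CDCA7, TK1, E2F1, MCM6, FOXM1 and CCNB2 the T286A points are all above the controls, and in those of MXD4, TPRG1, SLC35D2, CCR9, IL4I1, PNRC1, TRAF1 and FCER2 all below.

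Repair genes that work at replication forks shared this sign. All 23 measured genes of homologous recombination and the Fanconi anaemia pathway had positive differences, with a median of 0.38, and 4 were called. RMI2, a part of the complex that dissolves recombination intermediates, lay at 9.84, 9.96 and 9.83 in the T286A arrays and 9.05 and 9.14 in the empty vector arrays and rose by 0.78 ± 0.091 (adjusted p = 0.0203). BRIP1, a helicase partner of BRCA1, rose by 0.57 and MND1 by 0.42 (adjusted p = 0.0243 and 0.0462). Mismatch and base excision repair genes had a median of 0.01 and 0 of 13 called; MSH6, a mismatch sensor, was at 0.38 (adjusted p = 0.0571) and UNG, which removes uracil from DNA, at 0.32 (adjusted p = 0.161). Of 12 replication checkpoint genes 0 were called, with a median of 0.16. WEE1, the kinase that holds back mitosis, lay at 10.90, 10.93 and 10.90 with T286A and 10.39 and 10.47 with empty vector, and its difference of 0.48 did not pass (adjusted p = 0.077); CHEK2 was at 0.35.

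Of 19 genes for copying chromatin and DNA methylation, 4 were called higher and 0 lower, with a median of 0.23. CDCA7, a cofactor of the chromatin remodeller HELLS, lay at 9.91, 10.04 and 9.91 in T286A cells and 9.11 and 9.06 in controls and rose by 0.87 ± 0.10 (adjusted p = 0.0203). The histone chaperones CHAF1A and ASF1B rose by 0.54 and 0.50, and UHRF1, which brings the maintenance methyltransferase to new DNA, by 0.43 (adjusted p = 0.0458, 0.0315 and 0.0488).

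Among 9 regulators of mitotic genes, 2 were called higher and 0 lower. FOXM1, a factor that drives genes of late G2 and mitosis, lay at 9.13, 9.14 and 9.23 in the T286A arrays and 8.60 and 8.74 in the empty vector arrays and rose by 0.50 (adjusted p = 0.0388); MYBL2, which binds the same promoters with the MuvB complex, rose by 0.41 (adjusted p = 0.0453). The median of the 9 was 0.33. All 48 measured mitosis genes had T286A arrays above both controls, against 15.2% of all genes. Their differences ran from 0.13 to 0.54 with a median of 0.35. At an unadjusted limma p under 0.05, 45 were higher, against 5.95% of all genes, and 7 were called. The level of the list's median gene was 10.42, 10.42 and 10.38 with T286A and 10.00 and 10.03 in controls. NEK2, a centrosome kinase, lay at 10.43, 10.33 and 10.41 with T286A and 9.76 and 9.97 with empty vector and rose by 0.52 (adjusted p = 0.0458). SPC25, a kinetochore protein, rose by 0.52, ASPM, which organises spindle poles, by 0.47, and HMMR, a spindle assembly factor, by 0.45. CCNB2 (cyclin B2), picked as an example after its values were seen, lay at 11.42, 11.46 and 11.46 in T286A cells and 11.10 and 11.01 in controls and rose by 0.39. In bulk RNA a larger share of cells in S phase or mitosis and more transcript per such cell cannot be told apart.

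Some of the largest rises belonged to no list. ZNF367, a zinc finger factor, lay at 9.18, 9.11 and 9.23 in the T286A arrays and 8.46 and 8.42 in the empty vector arrays and rose by 0.73 ± 0.071 (adjusted p = 0.0112). GPSM2, which orients the spindle, rose by 0.59, and the centromere proteins CENPU and CENPM by 0.58 and 0.57. Called rises with other known roles were ANXA1, a phospholipid-binding annexin (0.57), FERMT2, a kindlin of integrin adhesions (0.58), and PCNX2 (0.61). APOBEC3B, a cytidine deaminase, was the single called member of 7 measured deaminases, at 10.29, 10.25 and 10.13 with T286A and 9.72 and 9.61 with empty vector and a rise of 0.56 (adjusted p = 0.0315); its probe sets may also read related APOBEC3 genes. Both called members of the 12 leukotriene genes rose. LTB4R, a receptor for leukotriene B4, lay at 6.66, 6.98 and 6.87 in T286A cells and 5.94 and 6.22 in controls and rose by 0.76 ± 0.12 (adjusted p = 0.0453). CYP4F2, which degrades leukotriene B4, was read at 7.03, 6.99 and 6.88 in the T286A arrays and 6.25 and 5.92 in the empty vector arrays, a rise of 0.88 (adjusted p = 0.0315). Its other 3 probe sets differed by -0.15, 0.19 and 0.22, and near-identical CYP4F relatives make this gene uncertain.

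Promoter sequence was set beside these groups, because E2F factors and the MuvB complex recognise short words near gene starts. RefSeq promoters of GRCh38.p14, from 250 bases before to 50 after the start, were matched to 14483 of 18231 genes, among them 50 called higher and 30 called lower. The E2F-type words were TTTGGCGC, TTTCGCGC, TTTCCCGC and TTTGCCGC, the CHR-type words (cell cycle homology region, the MuvB element) TTTGAA and TTCGAA, and CCAAT marked the box bound by NF-Y; both strands were read. Matches of E2F-type and CHR-type words overlapped in 0 promoters, and those of E2F-type words and the kappa-B consensus in 16. Promoters of the 4 largest called rises with an E2F-type word follow, then MCM6 with the most matches; capitals mark the matched bases, and each runs 5′ to 3′ on the gene's strand. They show how close the words lie to the start, which follows the first 250 bases of each sequence.
E2F2: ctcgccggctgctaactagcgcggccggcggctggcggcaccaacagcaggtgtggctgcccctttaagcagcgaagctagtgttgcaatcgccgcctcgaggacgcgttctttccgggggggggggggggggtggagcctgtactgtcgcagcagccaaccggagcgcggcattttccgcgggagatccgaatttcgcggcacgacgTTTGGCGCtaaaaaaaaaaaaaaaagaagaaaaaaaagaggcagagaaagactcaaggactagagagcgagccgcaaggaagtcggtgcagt
CDCA7: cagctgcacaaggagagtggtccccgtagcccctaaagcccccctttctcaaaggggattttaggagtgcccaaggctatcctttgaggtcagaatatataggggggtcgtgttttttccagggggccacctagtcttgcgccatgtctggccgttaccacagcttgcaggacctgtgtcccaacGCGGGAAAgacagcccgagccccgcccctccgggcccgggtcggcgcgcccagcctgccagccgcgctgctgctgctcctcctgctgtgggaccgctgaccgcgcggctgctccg
ZNF367: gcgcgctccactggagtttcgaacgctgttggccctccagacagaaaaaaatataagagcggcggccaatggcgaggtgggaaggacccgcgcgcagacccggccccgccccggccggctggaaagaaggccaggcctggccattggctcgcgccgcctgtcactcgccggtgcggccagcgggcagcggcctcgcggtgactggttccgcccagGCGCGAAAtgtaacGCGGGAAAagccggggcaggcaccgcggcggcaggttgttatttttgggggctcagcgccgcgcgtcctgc
E2F1: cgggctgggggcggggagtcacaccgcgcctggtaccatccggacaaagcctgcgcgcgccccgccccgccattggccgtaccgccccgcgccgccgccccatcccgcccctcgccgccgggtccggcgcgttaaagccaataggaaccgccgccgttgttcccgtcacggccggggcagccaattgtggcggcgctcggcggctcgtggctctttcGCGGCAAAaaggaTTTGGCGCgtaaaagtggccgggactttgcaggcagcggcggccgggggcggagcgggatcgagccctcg
MCM6: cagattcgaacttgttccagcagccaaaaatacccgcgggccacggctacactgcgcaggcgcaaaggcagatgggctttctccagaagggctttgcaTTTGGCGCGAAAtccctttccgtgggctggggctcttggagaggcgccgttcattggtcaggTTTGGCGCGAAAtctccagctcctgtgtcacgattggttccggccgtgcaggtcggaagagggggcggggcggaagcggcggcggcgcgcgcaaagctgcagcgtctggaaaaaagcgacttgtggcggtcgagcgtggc

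Counted from the start, the matches began at -42 in E2F2 (chr1:23531184-23531483, minus strand), at -65 in CDCA7 (chr2:173354622-173354921, plus strand), at -35 and -21 in ZNF367 (chr9:96418321-96418620, minus strand) and at -33 and -20 in E2F1 (chr20:33686336-33686635, minus strand). MCM6 (chr2:135876394-135876693, minus strand) held 4 matches, a pair of overlapping words at -152 and -148 and another at -90 and -86. An E2F-type word stood in 21 of 50 promoters of genes called higher, or 42.0% (exact 95% interval 28.2 to 56.8), against 4.54% of all 14483 promoters. It stood in 0 of 30 promoters of genes called lower (upper bound 11.6%). Looser sets were also read, with an unadjusted limma p under 0.05 and a difference of 0.3 or more in size. There the shares lay nearer that of all promoters, at 61 of 433 (14.1%) for higher and 6 of 376 (1.6%) for lower genes. The 28 matches in genes called higher began between -211 and 7, with a median of -38.5, and 22 lay within 100 bases of the start. The lists divided by word: the E2F-type word stood in 42.5% of 40 replication promoters and 9.3% of 43 mitosis promoters, while the CHR-type word stood in 5.0% of the former and 76.7% of the latter, against 13.6% of all promoters.

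The pair of mitosis genes with the largest called rises and a CHR-type word shows this second element, marked in capitals.
SPC25: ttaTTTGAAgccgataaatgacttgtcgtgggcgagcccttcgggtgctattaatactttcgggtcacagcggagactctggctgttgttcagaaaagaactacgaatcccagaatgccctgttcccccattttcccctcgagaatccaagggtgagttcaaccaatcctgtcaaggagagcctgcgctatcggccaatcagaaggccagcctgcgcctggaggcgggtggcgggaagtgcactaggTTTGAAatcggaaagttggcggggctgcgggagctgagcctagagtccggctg
ASPM: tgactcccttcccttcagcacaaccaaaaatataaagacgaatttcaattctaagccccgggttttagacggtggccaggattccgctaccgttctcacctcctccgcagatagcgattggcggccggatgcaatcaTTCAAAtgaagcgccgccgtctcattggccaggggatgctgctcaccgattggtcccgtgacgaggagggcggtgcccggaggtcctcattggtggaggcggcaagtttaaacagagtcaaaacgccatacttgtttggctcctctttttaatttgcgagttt

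SPC25 (chr2:168890381-168890680, minus strand) held the word at -247 and -3, and ASPM (chr1:197146620-197146919, minus strand) at -113. Among the 50 promoters of genes called higher, 18 held an E2F-type word alone of the pair, 16 a CHR-type word alone, 3 both and 13 neither. TK1, for instance, rose without an E2F-type word in the window, which says only that these letters are not there. The CCAAT box stood in 74.0% of promoters of genes called higher and 33.3% of those called lower, against 36.4% of all. In the looser sets it stood in 49.4% of higher and 33.5% of lower promoters, and the CHR-type word in 25.4% and 13.6%. The intervals cover counting error only, and a match is a word in the reference genome, not a measured site. Called rises were mostly bright genes, and no share was counted over genes of like brightness.

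**Figure D3:**
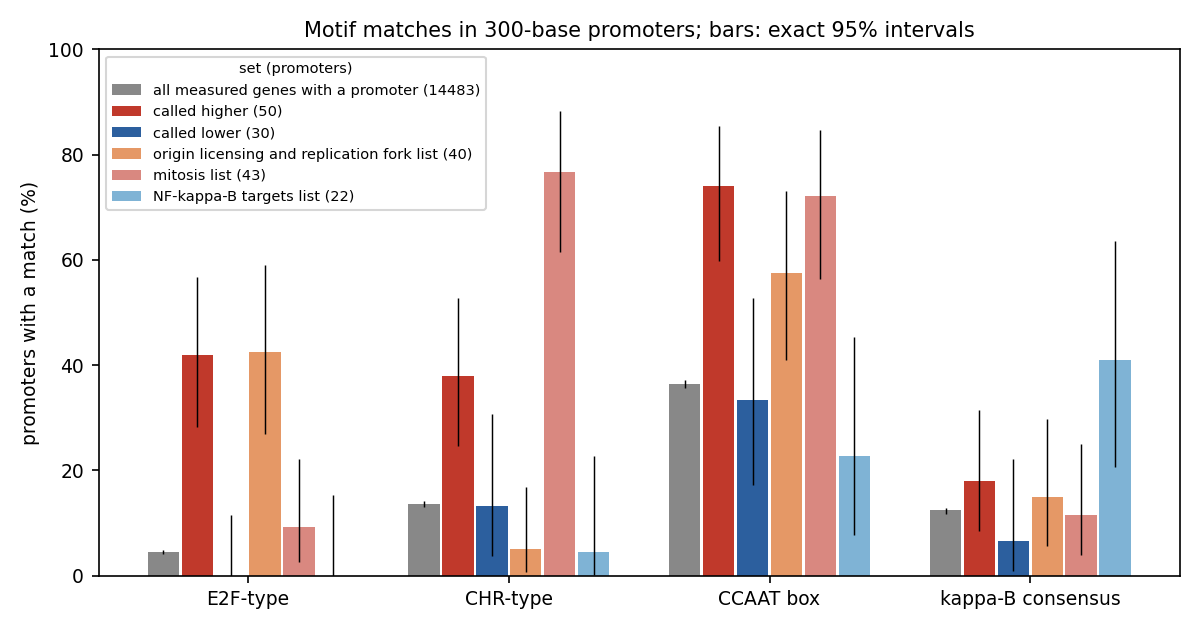
Bars give the percentage of 300-base promoters that hold each motif, for all genes, the genes called higher and lower, and 3 gene lists, with exact 95% binomial intervals as lines; the number of promoters stands in the legend. The E2F-type bars of genes called higher and of the replication list stand at 42.0% and 42.5% against 4.54% for all genes, and the CHR-type bar of the mitosis list stands at 76.7%.

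MXD4 showed the largest fall. It encodes a partner of MAX that represses MYC target genes and is typical of resting or differentiating cells. MXD4 lay at 7.58, 7.60 and 7.77 with T286A and 8.92 and 9.03 with empty vector; the T286A arrays were all below the controls by over 1, and the fall was -1.32 ± 0.11, or 2.51-fold (adjusted p = 0.00858). Its 5 probe sets differed by -1.32, -1.15, -0.87, -0.33 and 0.10 from the brightest to the dimmest, and 2 were called. It was the single called gene of 13 in the MYC, MAX and MXD network, whose median was -0.001. MYC itself lay at 11.42, 11.33 and 11.41 in T286A cells and 11.70 and 11.58 in controls, a difference of -0.25 that did not pass (adjusted p = 0.29). MXD3, a relative found in S phase, was at 0.49 (adjusted p = 0.0552), and MAX, MXD1, MXI1, MLX, MNT, MGA, MYCL, MYCN, MLXIP and MLXIPL lay between -0.15 and 0.28. In the list of FOXO-linked and quiescence genes 1 of 22 was called. PNRC1, a nuclear receptor coactivator, lay at 10.34, 10.39 and 10.39 in the T286A arrays and 11.08 and 11.05 in the empty vector arrays and fell (-0.69 ± 0.062, adjusted p = 0.00858), while YPEL5 was at -0.51 and did not pass (adjusted p = 0.051).

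NF-kappa-B targets were the list with the most called falls. NF-kappa-B factors mediate signals from CD40 and the B-cell receptor and switch on genes for survival, adhesion and chemokines. Of 25 measured targets, 6 were called lower and 0 higher, 23 had negative differences, and the median was -0.36. T286A arrays lay below both controls in 21, against 16.7% of all genes. IL4I1, a secreted amino acid oxidase, lay at 8.25, 8.17 and 8.18 with T286A and 9.04 and 8.97 with empty vector and fell (-0.81 ± 0.075, adjusted p = 0.0105). TRAF1, an adaptor of TNF receptors, lay at 8.86, 8.93 and 8.91 in T286A cells and 9.62 and 9.53 in controls and fell (-0.67 ± 0.076, adjusted p = 0.0183). ICAM1, an adhesion molecule, lay at 9.36, 9.17 and 9.38 in the T286A arrays and 9.88 and 9.96 in the empty vector arrays, and CCL3, a chemokine, at 11.37, 11.30 and 11.40 with T286A and 11.96 and 11.95 with empty vector. Both had well separated arrays, with differences of -0.62 and -0.60 (adjusted p = 0.0315 and 0.0203). The single CCL3 probe set may also read near-identical copies of the gene. CD40, the receptor for T-cell help, differed by -0.51 and CFLAR, an inhibitor of caspase 8, by -0.50, both called. BCL2A1, a survival gene of the same list, was at -0.41 and missed the threshold (adjusted p = 0.051). Of 18 subunits and inhibitors of the factors themselves 0 were called, 16 were negative and the median was -0.16. RELB was at -0.49 (adjusted p = 0.0546) and TNFAIP3, the A20 inhibitor, at -0.36 (adjusted p = 0.093).

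The kappa-B consensus stood in 9 of 22 promoters of the target list (40.9%, exact 95% interval 20.7 to 63.6), against 12.4% of all promoters, 9 of 50 (18.0%) of all genes called higher and 2 of 30 (6.67%) of all genes called lower. In the looser sets it stood in 11.5% of higher and 13.6% of lower promoters. CFLAR (chr2:201118466-201118765, plus strand) was the called target with such a match, chosen for that after its values were seen. The match began at -97, and the promoter is printed to show it in capitals.
CFLAR: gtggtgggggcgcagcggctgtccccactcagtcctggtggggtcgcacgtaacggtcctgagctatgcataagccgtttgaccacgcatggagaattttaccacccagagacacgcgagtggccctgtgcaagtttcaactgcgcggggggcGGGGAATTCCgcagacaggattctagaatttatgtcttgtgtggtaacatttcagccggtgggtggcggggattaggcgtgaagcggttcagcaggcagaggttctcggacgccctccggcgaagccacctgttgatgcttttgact

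Surface receptors and homing genes gave further falls. Of 25 chemokine, chemokine receptor and adhesion genes, 3 were called lower, ICAM1 and CCL3 among them, and the median was -0.21. CCR9, a receptor that guides lymphocytes to the gut, lay at 6.63, 6.83 and 6.62 in T286A cells and 7.63 and 7.72 in controls and fell (-0.98 ± 0.081, or 1.97-fold, adjusted p = 0.00858). Of 20 TNF receptor and ligand genes of B cells the called ones were TRAF1 and CD40, and the median was -0.088. In the B-cell identity list 3 of 29 were called, all lower, and the median was -0.05. FCRL2 and FCRL5, receptors of the Fc-receptor-like family on B cells, differed by -0.65 and -0.58 (adjusted p = 0.0388 and 0.0352), and all of their 11 and 9 probe sets were negative. FCER2 (CD23), a low-affinity IgE receptor of mature B cells, lay at 9.07, 9.10 and 8.95 in the T286A arrays and 9.77 and 9.58 in the empty vector arrays and fell (-0.64 ± 0.091, adjusted p = 0.0325). The level of the B-cell list's median gene was 9.04, 9.10 and 8.95 in the T286A arrays and 9.29 and 9.19 in the controls. In T286A replicates 2 and 3 this level was FCER2's own value, so it does not describe the list as a whole. By sign 18 members were negative and 11 positive. Of the 29, 10 had T286A arrays below both controls and 4 above, against 16.7% and 15.2% of all genes. At an unadjusted limma p under 0.05, 8 members were lower and 0 higher, against 6.15% and 5.95% of all genes.

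Plasma cell and secretory genes were lower in sign without calls. Of 13 plasma cell genes 12 were negative, and the median was -0.12. T286A arrays lay below both controls in 11, against 16.7% of all genes. JCHAIN, which joins IgM and IgA chains, was at -0.43 and SLAMF7 at -0.40 (limma adjusted p = 0.051 and 0.084). All 18 genes of ER folding and stress were negative, with a median of -0.16 and 0 called by limma. At an unadjusted limma p under 0.05, 6 were lower, against 6.15% of all genes. HERPUD1 and MANF, both induced by unfolded protein, were at -0.27 and -0.25 (adjusted p = 0.131 and 0.166). Respiratory chain genes were negative in 21 of 23 with a median of -0.071, 0 called by limma and 0 at an unadjusted p under 0.05. MHC class II genes had a median of -0.11 and 0 of 14 called; HLA-DMB, a peptide-loading chaperone, was at -0.45 (adjusted p = 0.237).

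Other called falls stood alone in their list or belonged to none. AKR1C1, a steroid-reducing enzyme, was read at 5.63, 5.32 and 5.52 with T286A and 6.36 and 6.75 with empty vector and fell (-1.07 ± 0.15, adjusted p = 0.0315), the single call among 18 NRF2 and AKR1C genes; near-identical AKR1C relatives make it uncertain. WNT5B, a non-canonical WNT ligand, lay at 6.42, 6.37 and 6.41 in T286A cells and 7.16 and 7.11 in controls and fell (-0.74 ± 0.072, adjusted p = 0.0112). DUSP10, a phosphatase of stress kinases, fell by 0.52 on the log2 scale (adjusted p = 0.0315), the single call among 13 MAP kinase feedback genes. TPRG1 lay at 8.02, 8.05 and 7.92 in the T286A arrays and 9.16 and 9.12 in the empty vector arrays and fell (-1.14 ± 0.071, adjusted p = 0.00146), and both of its probe sets were called. SLC35D2, a nucleotide sugar transporter of the Golgi, lay at 5.51, 5.65 and 5.77 with T286A and 6.75 and 6.75 with empty vector and fell (-1.10 ± 0.11, adjusted p = 0.0112). PHACTR1, which binds actin and protein phosphatase 1, and LGALS9, a galectin, differed by -0.69 and -0.57 and were called.

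Most of the remaining lists had no called member. Limma called 0 of 27 type I interferon genes, of which 2 were higher and 2 lower at an unadjusted p under 0.05, and 0 of 22 immediate early genes, with 3 higher and 2 lower. Their medians were -0.013 and 0.01. The p53 targets had a median of 0.075 and 0 of 19 called, with MDM2 at 0.33 (adjusted p = 0.111) and TP53INP1 at -0.35 (adjusted p = 0.122). Their signs leaned upward, with 15 positive and 4 negative. In 11 of the 19 the T286A arrays lay above both controls and in 2 below, against 15.2% and 16.7% of all genes. Before adjustment, limma gave 6 rises and 1 fall a p under 0.05, against 5.95% and 6.15% of all genes. BCL2 family genes, glycolysis and hypoxia genes, cholesterol synthesis genes and ATF4 targets had medians of -0.034, 0.018, 0.012 and 0.096 and 0 calls. Among the 16 BCL2 family genes, T286A arrays lay below both controls in 6 and above in 1. Limma gave 4 falls and 1 rise in that list a p under 0.05 before adjustment. Among the 20 ATF4 targets, T286A arrays lay above both controls in 7 and below in 2. There 3 rises and 0 falls had such a p. PHGDH, the first enzyme of serine synthesis, was highest among ATF4 targets at 0.55 (adjusted p = 0.102). Ribosomal protein and ribosome biogenesis genes, which report growth, had medians of -0.017 and -0.013, no difference beyond 0.14 in either direction, and 0 members at an unadjusted p under 0.05. The 24 reference genes had a median of 0.008.

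**Figure D4:**
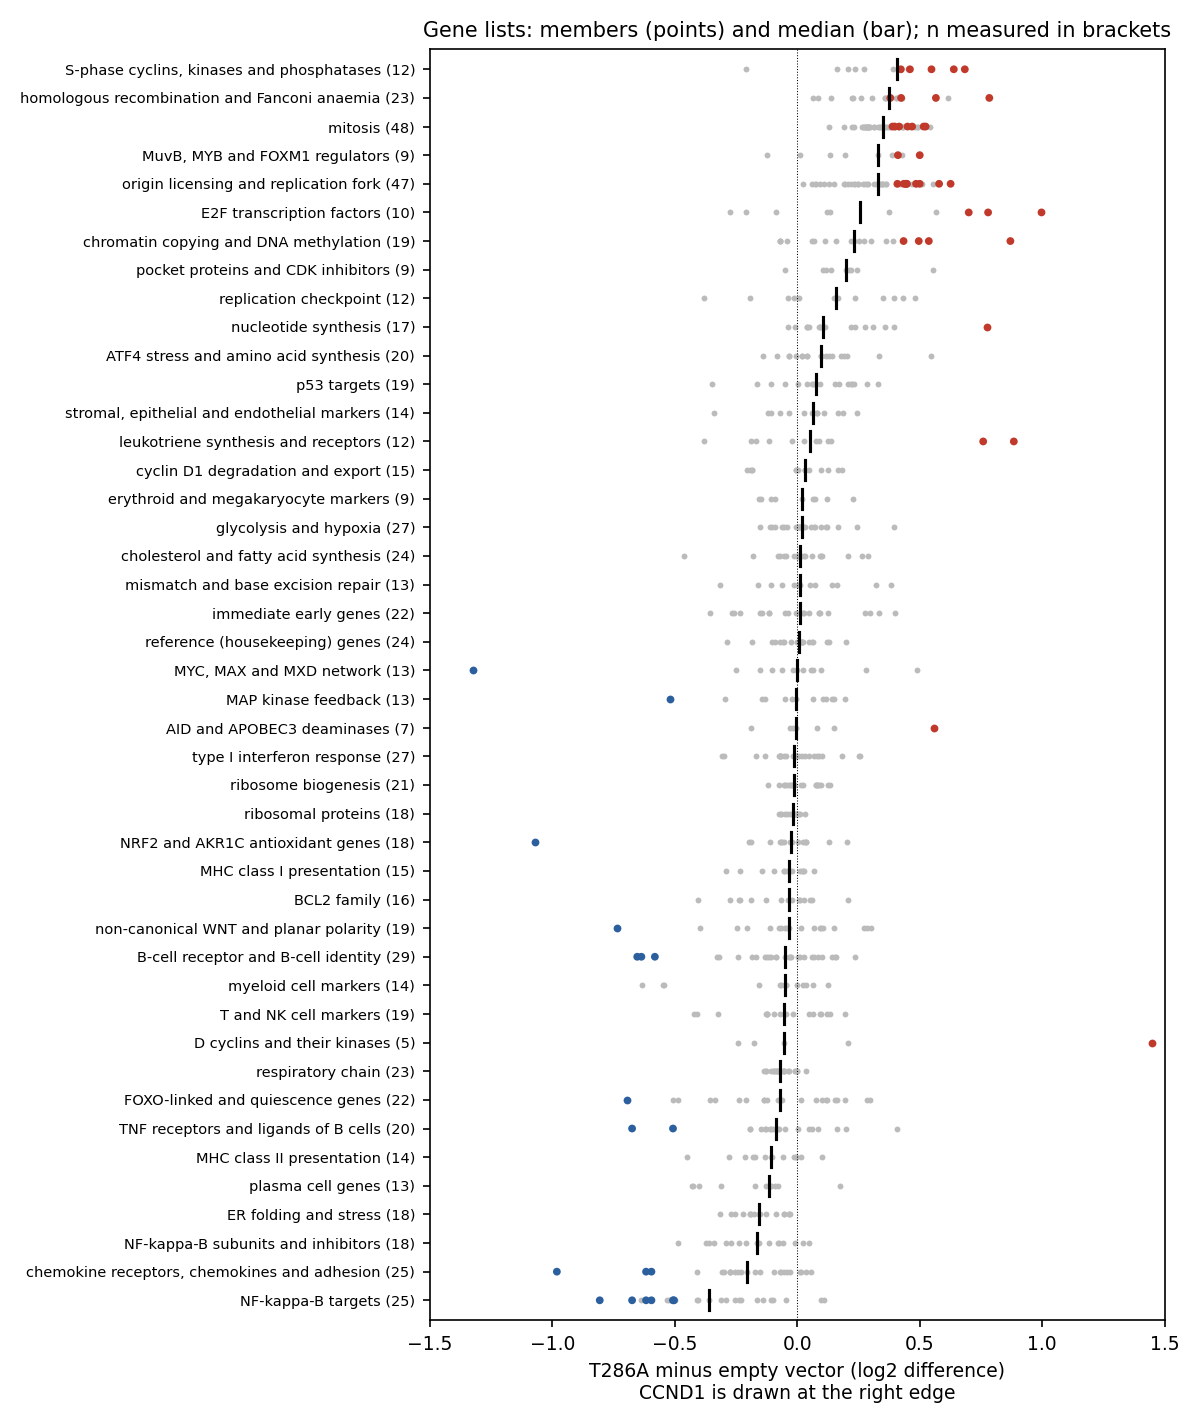
Each line is a gene list with the number of measured genes in brackets; points are members at their T286A minus empty vector difference (log2), coloured red or blue where called higher or lower and grey otherwise, black bars are list medians, and CCND1 is drawn at the right edge. The lists of replication, recombination and mitosis lie wholly above 0, the ER folding list wholly below 0, and the NF-kappa-B target list has the lowest median, -0.36.

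Whether the T286A response differed from that to wild-type cyclin D1 was read from the direct contrast of the T286A and wild-type arrays, 3 against 3, which uses no control array. CCND1 differed between the forms by -0.044 (95% interval -0.31 to 0.22, adjusted p = 0.902). Over all genes 180 were called (0.987%), with 109 higher (0.598%) and 71 lower (0.389%) in T286A cells. Wild-type replicate 2, which stood apart, enters this contrast; without it 124 were called, 68 higher and 56 lower. Of the 97 genes called against empty vector, 7 were also called against wild type; LTB4R and USP37 were not called without that array (adjusted p = 0.0796 and 0.118), and the other 5 were. LTB4R rose with T286A and lay at 6.14, 6.06 and 6.23 with wild type, where it differed from empty vector by 0.064; T286A minus wild type was 0.70 (adjusted p = 0.0251). USP37, a deubiquitinase that stabilises cyclin A, rose with T286A by 0.59 and was 0.41 above wild type (adjusted p = 0.0491). TPRG1 went opposite ways: wild-type arrays lay at 9.72, 9.82 and 9.77, above the controls by 0.63, while T286A arrays lay below them, and the forms differed by -1.77 (adjusted p = 1.13e-05). SLC35D2 was lower with T286A than with wild type by -0.71 (adjusted p = 0.0166). CCR9, MMP7 (a metalloproteinase) and TUBB2A (a tubulin) were lower with T286A than in controls by -0.98, -0.55 and -0.48, yet higher than with wild type by 0.58, 0.77 and 0.55 (adjusted p = 0.0114, 0.00264 and 0.00789).

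**Figure D5:**
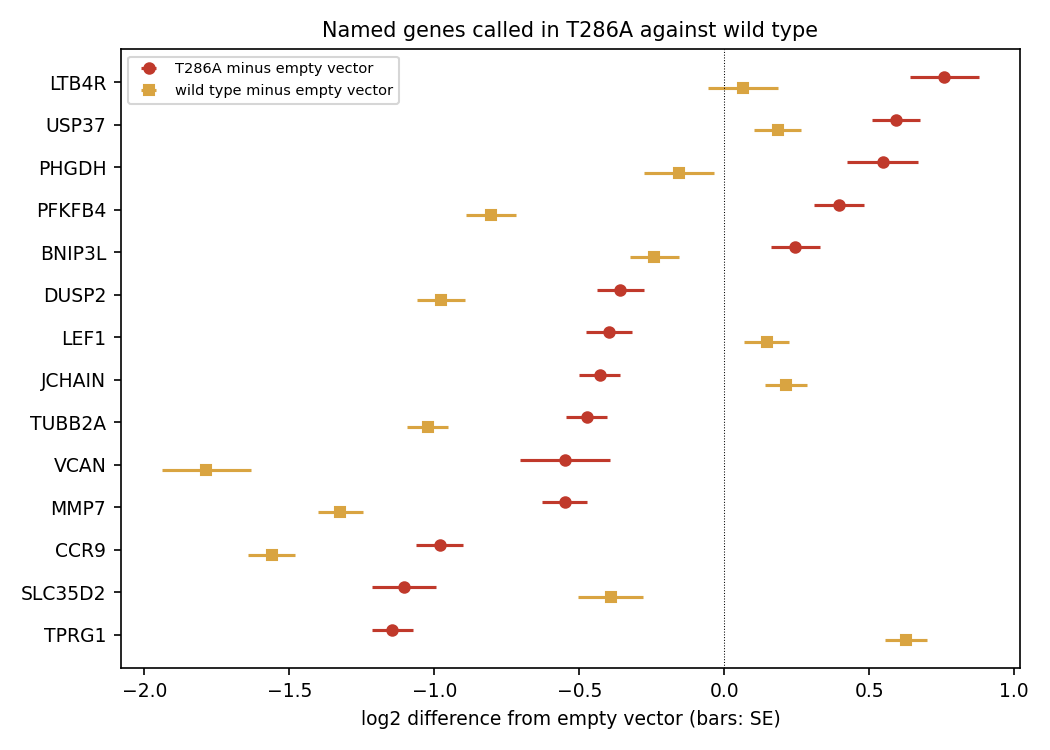
Points give the log2 difference from empty vector of T286A (red circles) and wild type (yellow squares), with SE as bars, for named genes called in T286A against wild type; both contrasts use the same 2 control arrays. TPRG1 lies at -1.14 and 0.63, and CCR9 at -0.98 and -1.56.

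The cell cycle genes and lists read next had no call in this contrast, which does not show that both forms acted alike on them. E2F2, E2F1, CDCA7 and FOXM1 differed between T286A and wild type by 0.096 (95% interval -0.084 to 0.28), 0.23 (0.083 to 0.37), 0.40 (0.18 to 0.61) and 0.23 (0.078 to 0.39), with adjusted p = 0.637, 0.175, 0.119 and 0.193. List medians of T286A minus wild type were 0.051 for replication and 0.12 for mitosis, with 0 of 47 and 0 of 48 members called, against 0 over all genes. Both forms were compared with the same 2 empty vector arrays, so their values share error: against empty vector, the replication and mitosis medians were 0.33 and 0.35 with T286A and 0.29 and 0.23 with wild type, and the NF-kappa-B target medians -0.36 and -0.56. Some lists with 0 called against empty vector had calls here: T286A exceeded wild type in 5 of 22 immediate early, 4 of 27 interferon and 4 of 27 glycolysis and hypoxia genes. Without wild-type replicate 2 these counts were 4, 2 and 3. Examples were DUSP2, a phosphatase of MAP kinases, at 0.62 (adjusted p = 0.00839), and PFKFB4, a regulator of glycolysis, at 1.20 (adjusted p = 0.000539); against empty vector these were at -0.36 and 0.40 and did not pass.

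The calls rest on a spread estimated over all 8 arrays. Without any 1 of the 5 T286A and empty vector arrays limma called 1 to 3 genes, and a fit of these 5 arrays alone called 4 (3 lower). Without wild-type replicate 1, 2 or 3 it called 26, 87 and 31. CCND1 was called in each of these fits, and all 97 genes kept their sign and an unadjusted p under 0.05. Where only wild-type arrays were left out, the differences themselves do not change, so signs were fixed there. Of 73 called genes with more than 1 probe set, 12 had at least 2 called the same way and 0 had one called the opposite way.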

How the data were processed

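RNA from 8 samples was measured on an Affymetrix human array. The deposited values are log2 expression values, which the authors made by RMA, per the submitters' processing notes, which also name R 3.5.0; further steps are not given in the sources used here. RMA forces equal intensity distributions, so changes in total RNA per cell are removed, and background left in dim probe sets makes their differences too small. Detection calls did not come with them, and precision is limited by the number of arrays.

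Of 48864 probe sets, 10 controls were left out, 45220 were annotated to 1 gene, 1325 to several and 2309 to none (platform annotation; 45144 found in the reference gene table, 0 symbols updated). A gene with several probe sets was represented by the one brightest on average over the 8 arrays, which gave 18231 genes. Group means were fitted to 8 arrays with lmFit and eBayes of limma 3.58.1 (R 4.3.3; 5 residual and 3.27 prior degrees of freedom), two-sided, with no filter on dim probe sets. The procedure was tested on simulated data. Gene lists (44, with 870 entries, 817 measured) were described by counts and medians, with no test of a list.

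The members and lists were chosen with earlier results of these data known. Genes were named by rule: CCND1; the 20 largest called rises and falls with arrays not overlapping and a mean at or above 5.94; up to 4 called members a list, or those with the smallest p until 2 were named; whole lists of cyclins, inhibitors, E2F and MYC factors; up to 10 genes a direction called in both contrasts; and the 6 smallest adjusted p a direction. Others are said to be chosen after their values were seen. Alternatives were the choice of probe set, scaling, a filter, eBayes options, array weights, the array set, a replicate block and leaving out each array. Looser gene sets were the alternative for promoter shares.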

Additional observations from a re-analysis of the deposited data

Results flagged for a closer look

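The 14 named genes below differed between T286A and wild-type cyclin D1 in the direct limma contrast (adjusted p under 0.05 over 18231 genes, 3 against 3 arrays), and are given as T286A minus wild type. All 3 T286A arrays lay on the stated side of all 3 wild-type arrays in each. The genes were picked by this same contrast and the share over all genes was not counted, so this adds no support.

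Among genes called higher with T286A than with empty vector, LTB4R was 0.70 and USP37 0.41 above wild type (adjusted p = 0.0251 and 0.0491). Of those called lower, TPRG1 was at -1.77 and SLC35D2 at -0.71 (limma adjusted p = 1.13e-05 and 0.0166). SLC35D2 lay further down with T286A than with wild type, while TPRG1 was above empty vector with wild type, by 0.63. CCR9 was at 0.58, MMP7 at 0.77 and TUBB2A at 0.55 (limma adjusted p = 0.0114, 0.00264 and 0.00789), so these 3 lay further down with wild type.

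The other genes were not called in T286A against empty vector. VCAN, a matrix proteoglycan that is also in the myeloid marker list, was at 1.24, PFKFB4 at 1.20 and PHGDH at 0.70 (adjusted p = 0.00661, 0.000539 and 0.0254). DUSP2 was at 0.62 and BNIP3L, a mitophagy receptor, at 0.49 (adjusted p = 0.00839 and 0.0262). JCHAIN was at -0.64 and LEF1, a WNT effector, at -0.54 (adjusted p = 0.00445 and 0.0127). For PFKFB4 the T286A mean was above that of empty vector by 0.40 and the wild-type mean below it by -0.80; values for JCHAIN were -0.43 with T286A and 0.21 with wild type, and for LEF1 -0.40 and 0.15. Without wild-type replicate 2, which stood apart from its group, 10 of the 14 were still called and no difference moved by more than 0.12; LTB4R, USP37, PHGDH and BNIP3L were not called (adjusted p = 0.0796, 0.118, 0.0735 and 0.0763).

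One signal came from outside the genes. Among 2309 probe sets with no gene in the annotation, 1 was called higher with T286A when all 48854 probe sets were tested (62 called, 0.127%). It lay at 8.12, 8.10 and 8.05 with T286A and at 7.57 and 7.50 with empty vector, a difference of 0.56 ± 0.072 (adjusted p = 0.0424).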

How the results depend on the processing

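Signs held more often than calls, but partly by construction. The 97 genes were picked for their differences in these same arrays. Leaving out wild-type arrays, eBayes options and the brightness filter do not alter those differences, so signs could not change there. All 97 called genes kept their sign under the alternatives with 1 value a gene in which they were tested, and CCND1 stayed called, at 5.77 to 6.04 with single arrays left out and at 1.44 when its 4 probe sets were averaged. The number of calls, 97 with 62 higher, 35 lower and 7 also called against wild type, depended on the setting, and the cause was not tested unless fewer arrays or genes entered. With the T286A and empty vector arrays alone it was 4, with 1 higher and 3 lower. The mean of all probe sets gave 190 (122 and 68, with 15 also called against wild type), and the probe set with the largest spread 7 (2 and 5, with 3). Testing genes at or above the median level gave 527 (293 and 234, with 83), eBayes with trend and robust options 626 (354 and 272, with 134), and array weights 317 (195 and 122, with 20). Centring on reference genes gave 48 (18 and 30), and cyclic loess 123, with 11 also called against wild type. All probe sets tested singly, an alternative chosen after seeing the data, gave 62 (40 and 22); there, 11 of 73 called genes with more than 1 probe set, CYP4F2, MXD4, WNT5B and UHRF1 among them, had a probe set of the opposite sign (-0.15, 0.10, 0.11 and -0.16 in these 4). Leaving out single arrays gave 1 to 87 calls, 1 to 50 higher, 0 to 37 lower and 0 to 10 also called against wild type; 1 and 2 remained without empty vector replicates 1 and 2, fits in which the lone control is assumed to vary like the other groups. A fit with the replicate number as a block gave 3 (1 higher, 2 lower, 1 also called against wild type). The sources used here do not say whether same-numbered samples belong together. Deviations from the group means of same-numbered T286A and empty vector arrays correlated at -0.054 and -0.069. For T286A and wild-type arrays the values were 0.041, 0.119 and 0.003, and for empty vector and wild-type arrays -0.09 and -0.091. Deviations of the 2 empty vector arrays mirror each other by construction, and weak correlations cannot show that samples were unpaired.

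Of 1035 alternatives for the 61 named called genes besides CCND1, 437 kept the call, 598 lost it and 0 changed sign. Signs could not change in those alternatives that leave the differences as they are. Of 84 named genes that were not called, some became called, 89 times in all. List medians changed sign in 62 of 748 alternatives, in lists whose own median was within 0.064 of 0. In 151 of the 748 they moved by at least the within-group SD of the list's median over the T286A and empty vector arrays.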

Other observations

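Probe sets annotated to several genes also showed chemokine falls. They read near-identical gene copies in the same arrays, so they are not a separate repeat of the CCL3 result. Of 1325 such probe sets, 6 were called lower and 0 higher when all 48854 were tested, with differences from -1.04 to -0.70. Of these, 4 read CCL3 or CCL4 relatives, chemokine genes in near-identical copies, 1 read AKR1C genes and 1 a pair of unrelated genes. They name no single gene and stand outside the counts above.

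By chromosome, the share of genes called was highest on chromosome 9 (4 higher and 4 lower of 724 genes, 1.1%) and 22 (0.98%), against 0.532% of all genes. Chromosome medians ran from -0.018 on chromosome 22 to 0.028 on chromosome 13, and chromosomes 18, 21 and X, with 257, 235 and 682 genes, held 0 called genes. Within 5 measured genes of each other lay 5 pairs of called genes: FCRL5 and FCRL2, NEK2 and DTL, FERMT2 and CDKN3, TRAF1 and GSN, and SLC35D2 and ZNF367. SLC35D2 and ZNF367 are adjacent on chromosome 9 and moved in opposite directions, by -1.10 and 0.73. The other pairs moved the same way. CDKN3 and GSN were named here for their position, after their values were seen.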
